A study of Mus musculus with 6 samples.

Results

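The genes described here carry the adrenergic signal of fat cells from the receptor to cyclic AMP (cAMP) and its kinase. They were taken as all probe sets annotated to any of 9 listed genes, Adrb1, Adrb3, Adra1a, Adra2a, Adcy3, Gnas, Prkaca, Prkar2b and Pde4d. Of these, 3 genes with 9 probe sets in all were measured under the annotation used here, out of 12394 genes and 20393 probe sets that carried a single gene symbol. The measured members were Gnas, Adcy3 and Prkaca. The other 6 genes, among them the receptors Adrb1, Adrb3, Adra1a and Adra2a, are not analysed here, so the results concern the steps below the receptor.

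The arrays measured RNA of subcutaneous white fat, labelled IWAT. The YY1bKO mice (3 arrays) carried Yy1flox/flox alleles and Ucp1Cre, a recombinase under the control of Ucp1 sequences, active mainly in brown and beige adipocytes, and the control mice (3 arrays) carried Yy1flox/flox alleles without it. All mice were 8 weeks old, on a mixed C57BL6 and 129 background, and had eaten a high fat diet for 2 weeks. The labels name no mice with Cre and without floxed Yy1, so an effect of the transgene cannot be told apart from one of the deletion, and nothing in the labels says that replicates were separate animals, so the p-values measure only the spread between these samples.

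In adipocytes, noradrenaline from sympathetic nerves acts on beta-adrenergic receptors, which couple to the stimulatory G protein, while alpha-2 receptors couple to inhibitory G proteins. The stimulatory alpha subunit, encoded by Gnas, activates adenylyl cyclases such as Adcy3, and the cAMP they make releases the catalytic subunit of protein kinase A (PKA), encoded by Prkaca. PKA phosphorylates lipolytic proteins and transcription factors of the CREB family, and in brown and beige adipocytes this pathway raises transcription of Ucp1, the uncoupling protein.

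The 250 bases before a RefSeq start site of each measured member (assembly GRCm38.p6, plus strand, 5′ to 3′) are shown because they are the windows searched for the cAMP response element and for the motif of YY1. For Adcy3 and Prkaca this is the start site furthest upstream, and for Gnas, whose locus has several alternative first exons, the one furthest downstream, which starts the transcript of the G protein subunit. Capitals mark TGACG, the core of the cAMP response element, or its reverse complement CGTCA.
Adcy3, chr12:4133147-4133396: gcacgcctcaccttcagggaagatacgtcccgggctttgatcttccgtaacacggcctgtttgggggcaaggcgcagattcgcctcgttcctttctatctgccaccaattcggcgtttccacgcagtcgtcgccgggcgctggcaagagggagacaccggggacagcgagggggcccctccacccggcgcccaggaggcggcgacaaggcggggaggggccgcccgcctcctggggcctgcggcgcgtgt
Gnas, chr2:174329756-174330005: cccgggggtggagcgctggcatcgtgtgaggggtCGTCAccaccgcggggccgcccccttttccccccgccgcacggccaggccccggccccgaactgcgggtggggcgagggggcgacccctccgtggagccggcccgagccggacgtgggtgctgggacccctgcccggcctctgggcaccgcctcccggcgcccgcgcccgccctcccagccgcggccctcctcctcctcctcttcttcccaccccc
Prkaca, chr8:83972728-83972977: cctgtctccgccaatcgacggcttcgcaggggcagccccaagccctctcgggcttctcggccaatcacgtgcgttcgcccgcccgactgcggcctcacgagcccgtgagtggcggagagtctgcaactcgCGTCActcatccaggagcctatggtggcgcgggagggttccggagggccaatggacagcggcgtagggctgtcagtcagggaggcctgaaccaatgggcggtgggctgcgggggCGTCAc
The core occurred 1 time in this Gnas window, 216 bases before the start, and 2 times in this Prkaca window, 120 and 6 bases before the start. It did not occur in the Adcy3 window. Of 32536 different RefSeq windows of this length, 17.9% held the core on either strand. The full element TGACGTCA, which contains the core, occurred in 1.56% of windows and the YY1 motif CCATNTT, searched on both strands, in 12.4%. Neither occurred in the 3 windows above. These matches describe the sequence in the window and show no binding.

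In its brightest probe set Yy1, the targeted gene, had 1118.1, 1357.5 and 1179.3 in YY1bKO against 1287.5, 1469.7 and 1568.2 in control (log2 difference -0.24, limma adjusted p = 0.574). The groups overlapped. The sources used here do not say whether this probe set lies in the deleted part. The share of cells of this tissue in which Ucp1Cre was active was not measured here.

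Gnas, Adcy3 and Prkaca each had a higher mean in YY1bKO fat than in control fat, by 1.21 to 1.44-fold, and no member passed the threshold of an adjusted p of 0.05. In whole tissue, fewer cells of a type and less RNA per cell cannot be told apart. Of the 3 members, 2 (Adcy3 and Gnas) were past an unadjusted p of 0.05 by limma with the higher mean in YY1bKO, where 8.45% of all genes were (10.4% in either direction). That count was 0 without YY1bKO replicate 1 or without YY1bKO replicate 2, 1 without YY1bKO replicate 3, control replicate 2 or control replicate 3, and 3 without control replicate 1. The share of all genes past that p with YY1bKO higher moved too. It was 5.02%, 7.26% and 4.55% without YY1bKO replicates 1, 2 and 3. Without control replicates 1, 2 and 3 it was 13.2%, 6.79% and 7.29%. The arrays of YY1bKO and control did not overlap in the same 2 members, with YY1bKO higher, as in 11.5% of all genes (16.5% in either direction). Of all 12394 genes, 0.0323% (4 genes, all higher in YY1bKO) passed the adjusted threshold. The median log2 difference of the members was 0.32, and that of all genes was 0.0046. Intensities are linear values after robust multi-array averaging (RMA) by the authors, and log2 differences were taken on log2(intensity + 1), where changes of dim genes come out too small.

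**Figure D1:**
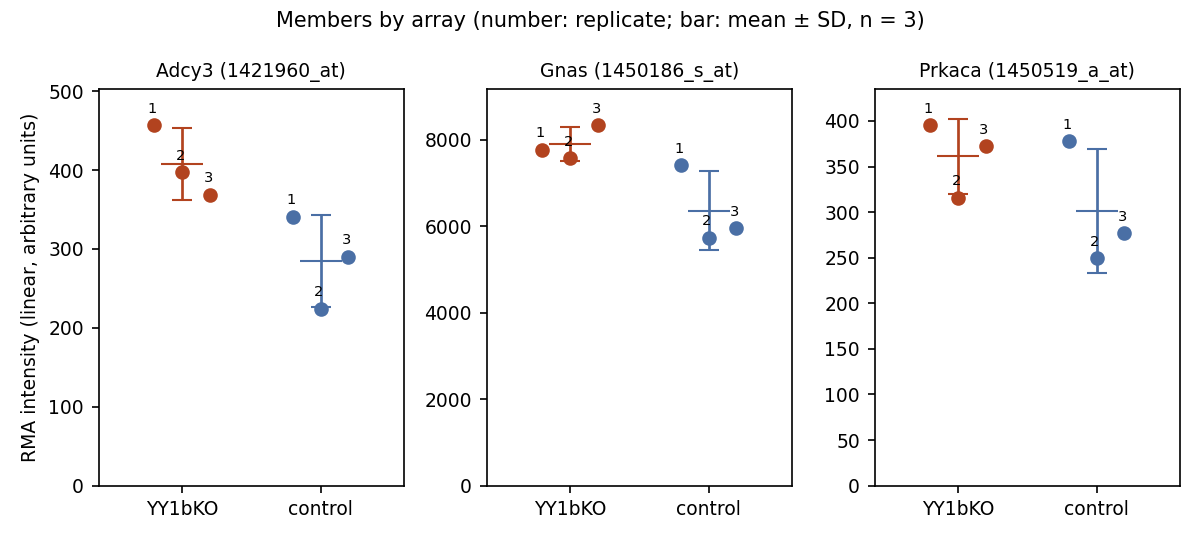
RMA intensity (linear axis from 0) of the brightest probe set of Adcy3, Gnas and Prkaca in 3 YY1bKO arrays (left in each panel) and 3 control arrays (right); points are arrays with their replicate number, and bars are mean ± SD. The YY1bKO points of Adcy3 and Gnas all lie above the control points, while those of Prkaca overlap them, and control replicate 1 is the highest control in all 3 panels.

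Gnas encodes the alpha subunit of the stimulatory G protein, the first intracellular step below the beta receptors. Its brightest probe set (1450186_s_at) gave intensities of 7776.4, 7577.5 and 8343.2 in YY1bKO replicates 1 to 3, against 7408.6, 5730.7 and 5957.0 in control replicates 1 to 3. Every YY1bKO array was above every control array, but control replicate 1 lay only just below the lowest YY1bKO array. The means were 7899 ± 397 in YY1bKO and 6365 ± 911 in control (SD, n = 3 each). The log2 difference was 0.32 ± 0.13 (SE; 95% confidence interval 0.01 to 0.63), a 1.25-fold higher level, with a limma adjusted p of 0.457. This probe set was brighter than 99.0% of the genes measured.

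The remaining 3 Gnas probe sets did not show that difference. They gave log2 differences of 0.09 (1421740_at), -0.0003 (1427789_s_at) and -0.02 (1453413_at), with upper 95% limits of 0.35, 0.20 and 0.21. The first of them had mean intensities of 10.1 in YY1bKO and 9.47 in control, and the second had 14.7 in both, below the lower quartile of intensities (29.9 to 31.7) on all 6 arrays. The third lay at 54.6 ± 1.12 in YY1bKO and 55.4 ± 4.63 in control (SD, n = 3 each). The sources used here do not say which of the alternative Gnas transcripts each probe set reads. With the mean of all 4 probe sets in place of the brightest, the log2 difference of Gnas was 0.10 (limma adjusted p = 0.782).

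Adcy3 encodes an adenylyl cyclase, the enzyme that makes cAMP. Its brightest probe set (1421960_at) gave intensities of 457.1, 397.0 and 368.6 in YY1bKO replicates 1 to 3, against 340.9, 224.0 and 289.9 in control replicates 1 to 3. The groups did not overlap, with control replicate 2 the lowest array and YY1bKO replicate 1 the highest. The means were 408 ± 45.2 in YY1bKO and 285 ± 58.6 in control (SD, n = 3 each). The log2 difference of 0.53 ± 0.18 (SE; 95% confidence interval 0.10 to 0.96), or 1.44-fold, was the largest of the 3 members and did not pass (limma adjusted p = 0.391). Permuting the 6 arrays exactly, 2-sided, gave p = 0.1, the lowest value that 3 against 3 arrays can reach.

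All 4 Adcy3 probe sets were higher in YY1bKO in mean, which for Gnas held of 2 of 4. Probe set 1421959_s_at gave 144.4, 120.5 and 115.9 in YY1bKO, against 106.3, 82.5 and 93.2 in control. Probe set 1436929_x_at gave 94.9, 75.4 and 76.6 in YY1bKO, against 69.7, 54.8 and 58.0 in control. In both the groups did not overlap, and both log2 differences were 0.43. Probe set 1436928_s_at overlapped, with 340.9, 254.4 and 234.9 in YY1bKO against 266.0, 192.4 and 245.5 in control and a log2 difference of 0.23. In the fit over all probe sets the limma adjusted p of the 4 lay between 0.404 and 0.749. These probe sets read transcripts of 1 gene, so they are not independent measurements. In the platform's naming, the suffixes _s_at and _x_at mark probe sets whose probes may match other transcripts too.

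Over the 9 probe sets of the 3 members, 4 were past an unadjusted p of 0.05 by limma with the higher mean in YY1bKO, where 7.69% of all probe sets were. Leaving out YY1bKO replicate 1 gave 0, control replicate 2 gave 1, control replicate 3 or YY1bKO replicate 2 gave 2, and YY1bKO replicate 3 gave 3. Leaving out control replicate 1 gave 5. The share of all genes past that p, given above, also moved with the array left out. With no array left out, none of the 9 probe sets was past that p with the lower mean in YY1bKO, against 2.05% of all probe sets (9.74% in either direction). The groups did not overlap in the same 4, with YY1bKO higher, against 10.5% of all probe sets, and in 0 with YY1bKO lower, against 5.09% (15.6% in either direction). Of the 9, 0 passed an adjusted p of 0.05 by limma, as 0.0294% of all probe sets did.

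**Figure D2:**
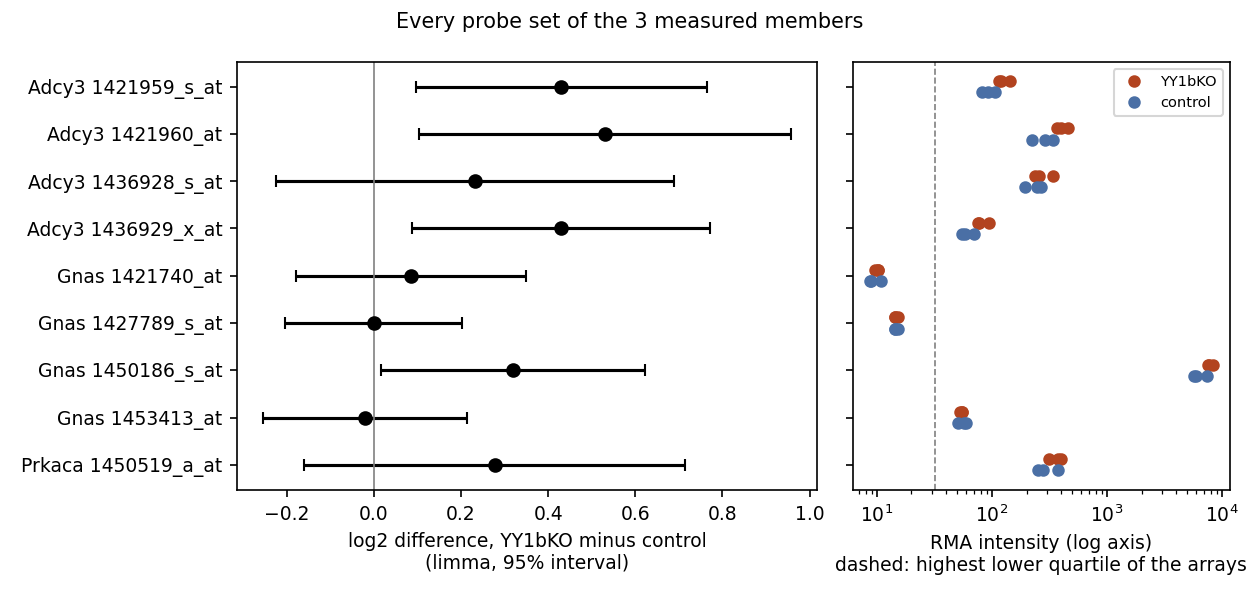
Left, log2 difference of YY1bKO minus control with its 95% limma interval for each of the 9 probe sets of Adcy3, Gnas and Prkaca; right, RMA intensity of each array on a log axis, with the highest lower quartile of the 6 arrays (31.7) as a dashed line. The interval lies above 0 for 3 Adcy3 probe sets and for the brightest Gnas probe set, and 2 Gnas probe sets lie left of the dashed line on every array.

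Prkaca encodes the main catalytic subunit of PKA. Its single probe set (1450519_a_at) gave intensities of 395.5, 316.0 and 372.4 in YY1bKO replicates 1 to 3, against 377.9, 249.5 and 276.7 in control replicates 1 to 3. The groups overlapped, since control replicate 1 exceeded YY1bKO replicates 2 and 3. The means were 361 ± 40.9 in YY1bKO and 301 ± 67.7 in control (SD, n = 3 each). The log2 difference of 0.28 ± 0.18 (SE) lay beside log2 SDs of 0.17 in YY1bKO and 0.31 in control and did not pass (limma adjusted p = 0.671). Its 95% confidence interval ran from -0.17 to 0.72, so a level of up to 1.65-fold higher is within it. The value moved with single controls, to 0.45 without control replicate 1 and 0.15 without control replicate 2.

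The 3 members shared an order among the controls, with replicate 1 highest and replicate 2 lowest in each brightest probe set. White adipocyte markers stood in the same order by summed intensity. Endothelial, smooth muscle and pericyte, Schwann cell and neuron, and skeletal muscle markers did too. The endothelial sums were 6606, 4094 and 4681 in control replicates 1 to 3. B cell, T cell, macrophage, skin and mammary epithelium markers stood in other orders. The summed intensity of 12 measured white adipocyte markers of 14 listed was 124218, 113030 and 121020 in YY1bKO replicates 1 to 3, against 120558, 93242 and 98932 in control replicates 1 to 3. Adipoq, which encodes the adipocyte hormone adiponectin, stood at 18131 to 20045 in YY1bKO and 15948 to 19325 in control (log2 difference 0.12). Lep, which encodes leptin, had the opposite sign, at 5154 to 7491 in YY1bKO and 5892 to 10727 in control (-0.31), and the groups overlapped in both. The median log2 difference of the 12 adipocyte markers was 0.34, beside 0.32 for the members. Of the 12, 4 were past an unadjusted p of 0.05 by limma with YY1bKO higher, against 8.45% of all genes. Of 10 endothelial markers 2 were, with a median of 0.33. Of 8 smooth muscle and pericyte markers 2 were, as of 8 Schwann cell and neuron markers, with medians of 0.17 and 0.002. The other lists had at most 1 such gene each. The part of adipocyte or other cell content in the members' differences was not tested.

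Some arrays carried signal of other tissues. Of 13 skin epithelium markers, all measured, the summed intensity was 419 to 466 in YY1bKO, against 437, 13986 and 385 in control replicates 1 to 3. The basal keratin Krt14 stood at 24.6 to 31.6 in YY1bKO, against 5585.1 in control replicate 2 and at most 37.0 in the other controls. The summed level of 13 mammary epithelium markers of 14 listed was 456 to 1033 in YY1bKO, against 6438 in control replicate 2 and 491 and 479 in the other controls. The 12 skeletal muscle markers, all measured, summed to 5662, 880 and 1911 in YY1bKO, against 612 to 858 in control, and their median log2 difference was 0.87. The muscle marker Acta1 had 1569.2, 524.3 and 1572.0 in YY1bKO against 181.0 to 312.7 in control, without overlap (log2 difference 2.08, limma adjusted p = 0.251). The muscle marker Ckm had 447.2 in YY1bKO replicate 1 and at most 71.0 in the other arrays. B cell markers, 10 of 12 listed, varied within both groups, from 429 to 5602 in YY1bKO and from 484 to 11743 in control. No defining marker was at 0, since the lowest value of any probe set was 5.4. The part of these tissues in the members' differences was not tested. When control replicate 2 and YY1bKO replicate 1 were both left out, a choice made after seeing the data, the log2 differences were 0.28 for Adcy3, 0.26 for Gnas and 0.08 for Prkaca, and 0 members were then past an unadjusted p of 0.05 by limma.

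**Figure D3:**
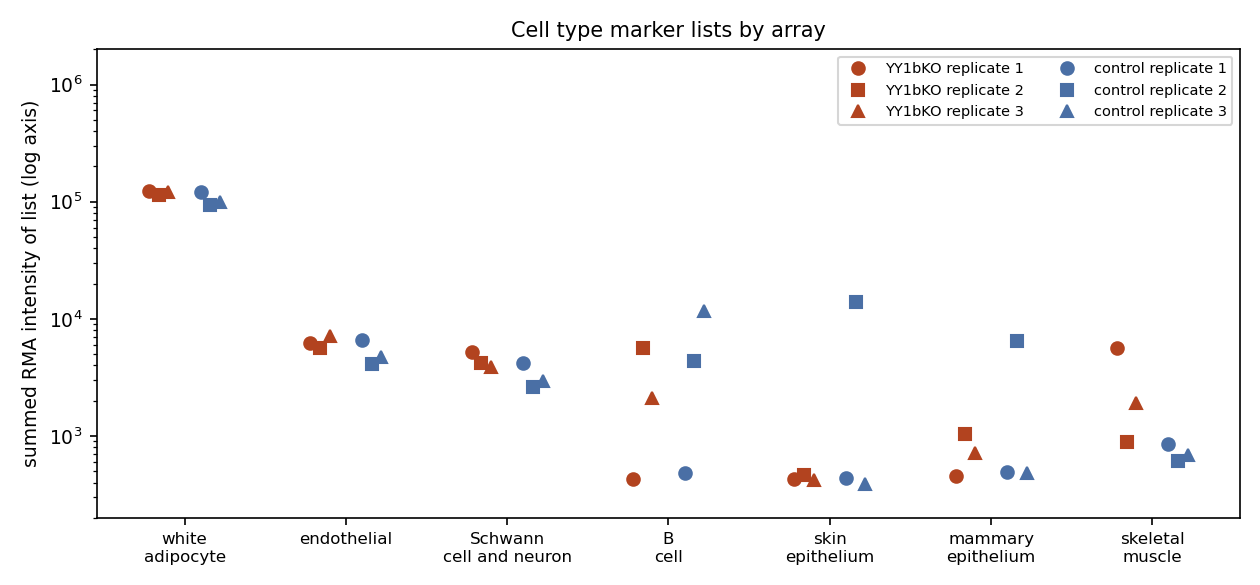
Summed RMA intensity (log axis) of 7 cell type marker lists in each of the 6 arrays, with YY1bKO (red) left of control (blue) and a marker shape for each replicate number. Control replicate 2 stands apart in the skin and mammary lists, YY1bKO replicate 1 in the skeletal muscle list, and replicate 1 of both groups is lowest in the B cell list.

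The neighbouring genes of each member were looked at beside it, and 0 of the 8 measured passed over all genes. Cenpo, a centromere protein gene that overlaps Adcy3 in the RefSeq annotation, had 162.2, 153.4 and 150.5 in YY1bKO against 136.6, 143.7 and 154.3 in control, with a log2 difference of 0.10 (limma adjusted p = 0.754). Ptrhd1, the next gene, had 401.0, 361.0 and 342.6 in YY1bKO against 324.8, 258.2 and 308.3 in control, without overlap, and a log2 difference of 0.31 (limma adjusted p = 0.46). Dnajc27, on the other side of Adcy3, gave 0.16 with overlap. The measured neighbours of Gnas gave 0.23 (Npepl1), -0.09 (Nelfcd) and -0.07 (Ctsz), and those of Prkaca -0.20 (Adgrl1) and -0.11 (Asf1b), all with a limma adjusted p of at least 0.453. Npepl1 had 657.5, 642.9 and 674.3 in YY1bKO against 594.8, 526.2 and 566.1 in control, without overlap. In the other neighbours of Gnas and Prkaca the groups overlapped. The genes whose log2 values were most like those of Adcy3 over the 6 arrays were Hsp90aa1, a cytosolic chaperone (Pearson r = 0.9974), Lrrc57 (0.9959), Ptrhd1 (0.9936), Aspa, aspartoacylase (0.9923), and Mogat1, a monoacylglycerol acyltransferase (0.9881). They were sought among genes above the 25th percentile of mean level, share arrays and normalization with Adcy3, and are given as a description.

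The rest of the pathway was described in 14 lists ordered by role, with 122 measured genes besides the members. Of these, 16 (13.1%) were past an unadjusted p of 0.05 by limma with YY1bKO higher, against 8.45% of all genes, and 0 with YY1bKO lower, against 1.99%. With the members included the first count was 18 of 125. It was 33 without control replicate 1 (13.2% of all genes), 11 without control replicate 2 (6.79%), 9 without control replicate 3 (7.29%), 8 without YY1bKO replicate 1 (5.02%) and 9 without YY1bKO replicate 3 (4.55%). In the 8 lists of the signalling steps, from receptors to CREB factors, 6 of 73 genes besides the members (8.22%) were past that p with YY1bKO higher, with a median log2 difference of 0.01, and 0 passed over all genes. Among thermogenic targets and PKA-controlled lipolysis 7 of 16 (43.8%) were past it, with a median of 0.77, and Ucp1 and Slc27a2 passed over all genes. Both lists were chosen with earlier results of these data known, so this contrast is not independent evidence. With control replicate 2 and YY1bKO replicate 1 both left out, the counts were 2 of the 73 and 6 of the 16, against 3.71% of all genes. Single arrays also moved the count of the 73, to 14 without control replicate 1, and to 2 without control replicate 2, control replicate 3, YY1bKO replicate 1 or YY1bKO replicate 3, against the shares of all genes just given.

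**Figure D4:**
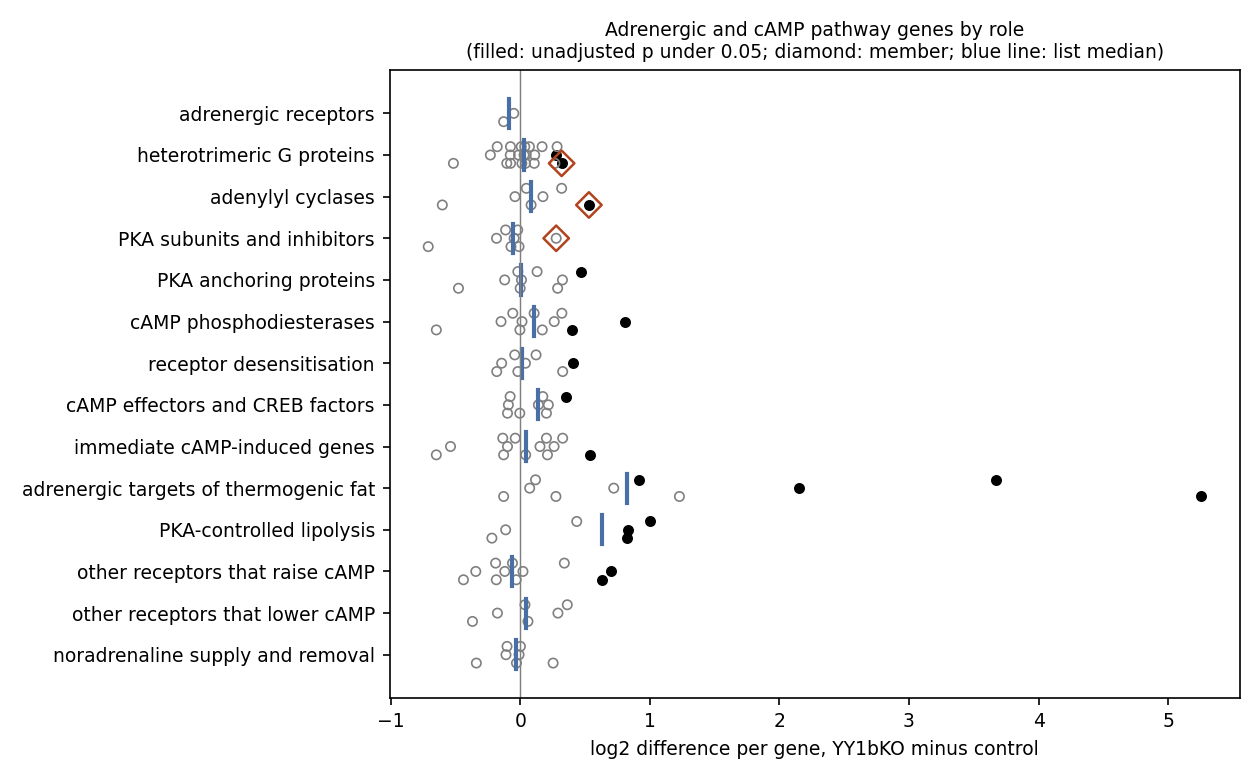
Log2 difference of YY1bKO minus control (x axis) for each measured gene of 14 adrenergic and cAMP lists; filled points have an unadjusted p under 0.05, diamonds are members, and blue lines are list medians. Medians of the 8 lists of signalling steps run from -0.09 to 0.14, while single genes lie further from 0. The lists of thermogenic targets and lipolysis reach medians of 0.82 and 0.63. All lists were chosen with earlier results of these data known, so this contrast is not independent evidence.

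Of the adrenergic receptors, 2 of 9 listed genes were measured, and 0 passed at an unadjusted p under 0.05 by limma. Adra1b, an alpha-1 receptor, had 28.1, 26.2 and 25.2 in YY1bKO against 30.0, 26.8 and 30.4 in control, below the lower quartile on all 6 arrays. Adra2c, an alpha-2 receptor, had 39.1, 47.6 and 43.8 in YY1bKO against 45.5, 43.3 and 46.0 in control. Both were dim, and their groups overlapped.

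Among 22 measured G protein subunits, Gna11, an alpha subunit that activates phospholipase C, gave a log2 difference of 0.27 (limma adjusted p = 0.453) beside Gnas. Gna13, another alpha subunit, had a difference of -0.52 (0.492), with 334.2, 342.9 and 324.7 in YY1bKO against 387.6, 416.4 and 675.2 in control. The groups did not overlap for Gna13, and the gap to the lowest control was small beside the spread of the controls. Gnao1, an alpha subunit of the inhibitory family, averaged 86.4 ± 3.55 in YY1bKO and 102 ± 8.47 in control (SD, n = 3 each), also without overlap and with a difference of -0.23 (0.496). Its 3 probe sets ran from -0.23 to 0.02. The inhibitory subunit Gnai3 had a difference of -0.18 (0.593), and the beta subunit Gnb1 of 0.17 (0.686). The 3 probe sets of Gnb1 ran from -0.14 to 0.17. The list median was 0.03.

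Adcy3 was the only 1 of 7 measured adenylyl cyclases higher at an unadjusted p under 0.05 by limma. Adcy4 had a log2 difference of 0.32 (limma adjusted p = 0.647) and Adcy6 of 0.18 (0.757), while Adcy2 had 0.05 and Adcy8, below the lower quartile on all 6 arrays, 0.08. Adcy7, a cyclase abundant in blood cells, had 503.1, 1046.9 and 663.6 in YY1bKO against 714.5, 1043.9 and 1638.1 in control. Its difference of -0.60 (0.66) did not pass, and the groups overlapped. In the summed B cell markers of the same arrays, control replicate 3 was also the highest (11743), and the part of B cells in the Adcy7 values was not tested.

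Of 8 measured PKA subunits and inhibitors, Prkaca was the only gene with a positive difference in its brightest probe set. Of the 8, 0 passed at an unadjusted p under 0.05 by limma. The 3 probe sets of Prkar1b ran from -0.02 to 0.28, beside 0.28 for the single probe set of Prkaca. The second catalytic subunit Prkacb had a log2 difference of -0.05 (limma adjusted p = 0.951), and the regulatory subunits Prkar1a, Prkar1b and Prkar2a had -0.11, -0.02 and -0.07. The inhibitor Pkib, with 15.6, 53.2 and 27.7 in YY1bKO against 23.4, 39.7 and 112.8 in control, had a difference of -0.71 (adjusted p = 0.768 by limma), and the inhibitor Pkia of -0.18. The list median was -0.06. Among 9 measured anchoring proteins, Akap1, which holds PKA at the mitochondrial outer membrane, had 726.5, 523.5 and 531.4 in YY1bKO against 496.9, 403.8 and 376.6 in control, without overlap. Its difference was 0.47 ± 0.18 (SE; adjusted p = 0.439 by limma). Akap9 had a difference of -0.48, Akap2 of 0.33, Akap12 of 0.29 and Akap3, below the lower quartile on all 6 arrays, of 0.13, and the groups overlapped in each.

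The phosphodiesterases listed here can break down cAMP, not always as their only substrate. Pde1a, a calcium and calmodulin dependent form, gave 240.6, 199.9 and 249.5 in YY1bKO against 149.4, 107.2 and 137.9 in control, and all YY1bKO arrays were above all controls. Its log2 difference of 0.81 ± 0.16 (SE), or 1.75-fold, had the smallest p of the signalling steps and did not pass over all genes (limma adjusted p = 0.201). Pde4b, itself induced by cAMP, had 91.7, 225.4 and 161.6 in YY1bKO against 161.7, 281.4 and 284.4 in control, with overlap and a difference of -0.65 (0.637). Of the 11 measured phosphodiesterases 2 were past an unadjusted p of 0.05, the other being Pde7b (0.40, adjusted p = 0.454), which was below the lower quartile on 4 of 6 arrays. The 2 probe sets of Pde7b ran from 0.05 to 0.40. Pde2a had 0.32 and Pde4a 0.17, both with overlap. Among 8 desensitisation genes only Grk4, a receptor kinase, was higher at that threshold (0.40, adjusted p = 0.418), and among 9 effectors and CREB factors only Rapgef3, the cAMP-activated exchange factor EPAC1 (0.36, adjusted p = 0.453). The 2 probe sets of Grk4 ran from 0.16 to 0.40. Of the other desensitisation genes, the log2 differences were 0.33 for Rgs2, -0.14 for Arrb2, -0.18 for Grk6 and 0.12 for Rgs4. Of the transcription factors and their coactivators they were 0.22 for Atf2, 0.17 for Crtc3, 0.14 for Crtc2, -0.09 for Creb1 and 0.20 for Crem, and all of these overlapped between groups. The 3 probe sets of Rgs4 ran from -0.11 to 0.18, and the 3 of Crem from -0.06 to 0.20.

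Among 13 genes known to be induced at once by cAMP, 1 was higher at an unadjusted p under 0.05 by limma and 0 lower. That gene was Per1, a clock gene, with 797.8, 765.9 and 1055.1 in YY1bKO against 564.7, 769.5 and 480.3 in control (log2 difference 0.54, limma adjusted p = 0.458). Control replicate 2 lay above the lowest YY1bKO array, so the groups overlapped. Junb, a subunit of the transcription factor AP-1, had a difference of about the same size and the opposite sign, with 63.4, 102.3 and 77.8 in YY1bKO against 84.8, 137.4 and 134.1 in control (-0.54, limma adjusted p = 0.544). Pde4b, given above with -0.65, is in this list too, and the orphan receptors Nr4a2 and Nr4a3 had 0.15 and -0.13. The list median was 0.04, with 7 genes higher and 6 lower in mean.

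Of 10 measured adrenergic targets of thermogenic fat, 9 had the higher mean in YY1bKO, where 51.0% of all genes did, and 2 passed over all genes by limma, Ucp1 and Slc27a2. This list was chosen with earlier results of these data known, so its share is not independent evidence. Ucp1 had 1610.2, 2062.0 and 1929.2 in YY1bKO against 42.1 to 51.5 in control (log2 difference 5.25, limma adjusted p = 1.91e-04). Slc27a2, which activates very long chain fatty acids, had 255.2, 242.4 and 235.7 in YY1bKO against 24.1, 19.7 and 12.7 in control (3.67, adjusted p = 0.0114). Both rose in YY1bKO. Of all pathway genes, the number passing was 1 without any 1 of YY1bKO replicates 1, 2 and 3, and 1 with replicate number as a block. It was 2 without control replicate 1 or control replicate 3, and 3 without control replicate 2. These counts do not say which genes passed. Elovl3, a fatty acid elongase induced in cold brown fat, had 178.7, 315.3 and 229.1 in YY1bKO against 58.2, 49.7 and 48.9 in control, just outside the threshold (2.15, adjusted p = 0.0539). Ppargc1a, the coactivator of mitochondrial biogenesis, had 140.0, 108.4 and 79.1 in YY1bKO against 74.8, 47.5 and 48.7 in control (0.92, adjusted p = 0.326). Angptl4, an inhibitor of lipoprotein lipase, had 5928.0, 6029.2 and 7218.7 in YY1bKO against 5911.0, 4869.3 and 5053.5 in control (0.28, adjusted p = 0.529). Its 2 probe sets ran from 0.02 to 0.28. In the brightest probe set the groups did not overlap in any of these 5, by a narrow margin for Angptl4. Dio2, the deiodinase that brown fat induces on adrenergic stimulation, had 37.6, 39.4 and 37.6 in YY1bKO against 41.9, 35.1 and 32.4 in control (0.07, adjusted p = 0.868). It was dim, near the lower quartile of intensities (29.9 to 31.7), and its 3 probe sets ran from -0.13 to 0.07.

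Of 6 measured genes of PKA-controlled lipolysis, 3 (Pnpla2, Lipe and Aqp7) had higher values in every YY1bKO array than in any control array, where 11.5% of all genes did. This list too was chosen with earlier results of these data known, so its share is not independent evidence. Pnpla2, the triglyceride lipase, had 4878.0, 5245.3 and 7138.5 in YY1bKO against 3231.1, 2342.0 and 3009.0 in control (log2 difference 1.00, limma adjusted p = 0.191). Lipe, hormone-sensitive lipase and a direct PKA substrate, had 3971.2, 3282.8 and 3765.1 in YY1bKO against 2612.4, 1823.2 and 1835.4 in control (0.83, adjusted p = 0.211). Aqp7, the glycerol channel, had a difference of 0.83 (0.366). None of the 3 passed over all genes. The groups overlapped in the other 3 genes. Abhd5, the coactivator of Pnpla2, had 1162.1, 1311.3 and 1996.5 in YY1bKO against 1205.5, 1176.5 and 865.6 in control (0.44, limma adjusted p = 0.608). G0s2, the inhibitor of Pnpla2, had a difference of -0.22 (0.89) and Mgll, monoglyceride lipase, of -0.11 (0.916).

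Other receptors that act on cAMP were mixed. Of 11 measured receptors that raise it, Mc2r, the corticotropin receptor of mouse adipocytes, had 930.2, 695.5 and 829.4 in YY1bKO against 688.0, 416.4 and 505.0 in control (log2 difference 0.63, limma adjusted p = 0.392). Pth1r, the parathyroid hormone receptor, had 101.3, 73.3 and 111.2 in YY1bKO against 76.2, 46.0 and 53.9 in control (0.70, adjusted p = 0.399). The groups did not overlap for Mc2r and did for Pth1r, and in both genes control replicate 1 was the highest control. The prostaglandin receptors Ptger2 and Ptger4 had 0.34 and -0.44, and Vipr2, below the lower quartile on all 6 arrays, -0.19. Of 6 measured receptors that lower cAMP, 0 passed at an unadjusted p under 0.05 by limma, with Sucnr1, the succinate receptor, at 0.36 and Hcar2, the nicotinic acid receptor, at 0.29. Ptger3 was at -0.37, Npy1r at 0.06 and Sstr2, below the lower quartile on all 6 arrays, at -0.18. The 2 probe sets of Ptger3 ran from -0.37 to 0.0005.

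Genes of noradrenaline supply and removal gave little signal. Of 7 measured, 5 (Th, Ddc, Slc6a2, Slc6a3 and Npy) lay below the lower quartile of intensities on all 6 arrays, and 0 passed at an unadjusted p under 0.05 by limma. Th, tyrosine hydroxylase, had means of 21.1 in YY1bKO and 22.9 in control. Transcripts of sympathetic neurons lie mainly in cell bodies outside the fat pad, so these values do not measure innervation. Maoa, a monoamine oxidase that degrades noradrenaline, had a log2 difference of 0.25 (limma adjusted p = 0.726).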

How the data were processed

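Biotin-labelled complementary RNA of subcutaneous white fat was hybridised to Affymetrix arrays, per the labels' protocols. The authors deposited 1 intensity per probe set and array, made with RMA per the submitters' processing notes. Their linear scale was read from the range (5.4 to 25730.1). The sources used here give no RMA version. RMA makes array distributions alike and compresses dim values, and 3 arrays per group limit the precision.

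Of 22690 probe sets, 20393 carried 1 gene symbol in the platform's annotation, 691 several and 1606 none. The last 2 kinds were left out. Symbols were checked against RefSeq (GRCm38.p6), which changed 0. A gene was represented by its probe set with the highest mean log2 value. Values were tested as log2(intensity + 1) with limma 3.58.1 in R 4.3.3 (lmFit, eBayes, 2-sided), without a filter, with Benjamini-Hochberg adjustment over all 12394 genes, and separately over all 20393 probe sets. The fit was tested on simulated data with added effects larger than the members' differences. That test therefore does not show whether differences of the members' size would be found. Arrays were distinct (Spearman correlations 0.9573 to 0.9941).

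Members and gene lists were chosen with earlier results of these data known. Named were all measured members, Yy1, Ucp1, pathway genes past the adjusted threshold and, of each list, up to 5 genes besides members with the smallest p. Further list genes (Crem, Dio2, Prkar1b, Mgll, Slc6a2), marker genes and the neighbours of members were named after their values were seen. Likeness was planned for Adrb3, which is not analysed here, and Adcy3 took its place after values were seen. The grouping of lists into signalling steps and targets was also made then. Alternatives were other scalings, pseudocounts, brightness filters, probe set summaries, eBayes settings, array weights, a replicate block and leaving out arrays.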

Additional observations from a re-analysis of the deposited data

How the results depend on the processing

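Under 18 alternatives for Adcy3, Gnas and Prkaca the direction and the side of the adjusted threshold stayed as in the report, with log2 differences from 0.28 to 0.67 (adjusted p from 0.159 to 0.906), 0.10 to 0.43 (0.145 to 0.979) and 0.08 to 0.45 (0.199 to 0.992) by limma. The members' median ran from 0.25 to 0.45, and 0 members or member probe sets passed over all genes in any alternative. The count of members past an unadjusted p of 0.05 was less stable than these values. It was 2 of 3, and 1 after quantile normalization, after subtracting array medians, with the mean of all probe sets or with the replicate block. Leaving out single arrays gave 0 to 3, with 0 without YY1bKO replicate 1 or 2, 1 without YY1bKO replicate 3, control replicate 2 or control replicate 3, and 3 without control replicate 1. The share of all genes past that p with YY1bKO higher then ran from 4.55% to 13.2%. Of the 9 probe sets 4 were past it, 2 above the 50th percentile of brightness, where fewer were tested, and 0 to 5 without single arrays. Of all pathway genes, members included, 2 passed over all genes, 1 with the replicate block and 1 to 3 without single arrays. At an unadjusted p under 0.05, 18 were higher and 0 lower. Without single arrays 8 to 33 were higher and 0 to 2 lower, and lower were 2 after quantile normalization, 1 after subtracting medians and 2 with the block. The 33 came without control replicate 1 and the 8 without YY1bKO replicate 1. Signalling steps besides members had 6 such genes, 3 after quantile normalization and 2 to 14 without single arrays (14 without control replicate 1). Targets and lipolysis had 7, and 6 to 10 under every alternative run. The 10 came without control replicate 1, where 13.2% of all genes were past that p with YY1bKO higher. The counts of 6 came where 3.71% to 7.29% of all genes were. Both lists were chosen with earlier results of these data known. Without control replicate 2 and YY1bKO replicate 1 together, added after seeing the data, the counts were 0 members, 0 member probe sets, 1 pathway gene over all genes, 9 higher, 1 lower and 2 signalling steps. Causes of these moves were not tested. Same-numbered arrays deviated from their group means with correlations of 0.61, 0.10 and 0.03, and 3 of 6 arrays correlated best with their own number, so the replicate numbers were not taken to pair the samples. Probe sets near the lower quartile carry little signal over background.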
